A study of Mus musculus with 4 samples.

Results

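The 8 genes examined here, Msx1, Msx2, Dlx5, Dlx6, Alx1, Alx4, Pax3 and Runx2, encode transcription factors that pattern the skull, face and skeleton. Their sites were the accessible regions of the ATAC-Seq table that overlap the body of a gene or lie within 50 kb of its transcription start site (TSS), by GENCODE gene models on mm10. This rule gave 61 sites of 82325 in all. Runx2 held 31 of them, Msx2 10, Dlx6 10, Dlx5 8, Pax3 4, Msx1 2, Alx4 2 and Alx1 1. Dlx5 and Dlx6 are neighbours and share 7 sites, so their values are not independent. ATAC-Seq measures how often the Tn5 transposase cuts DNA and inserts adapters, and more reads over a site mean that it was more accessible. The cells were mouse embryonic fibroblasts (MEFs) of C57bl6 background, derived from mid-gestation embryos and immortalized by transfection of a plasmid carrying the T antigen of simian virus 40. There were 2 libraries from HAT1+/+ lines (WT) and 2 from HAT1-/- lines (KO), which lack HAT1 in all cells. HAT1 acetylates newly made histone H4 before it is built into chromatin. Each library came from a line of its own name. The names of WT replicate 1 and KO replicate 2 share a number, and whether this marks a common litter is not stated, so these lines may not be independent. The p-values below cover these lines only, with 1 library each, so spread between lines and technical error are mixed in them. The test also draws the spread of each site toward that of sites with like signal. All 4 lines carry the T antigen, and the values describe cultured fibroblasts, not the embryonic face.

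The homeodomain proteins Msx1, Msx2, Dlx5, Dlx6, Alx1 and Alx4 and the paired-box protein Pax3 act in neural crest cells and in the mesenchyme derived from them, which builds most of the facial skeleton. Msx genes are targets of BMP signalling and act in tooth, palate and skull vault, Dlx5 and Dlx6 give the lower jaw its identity, and Alx genes act in the upper face. Runx2 is the master regulator of osteoblasts, the bone-forming cells, and binds DNA through its Runt domain. The loss of HAT1 is known to cause craniofacial defects in mice, which is the question behind this comparison.

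The units below are the normalized counts of the deposited table, that is read counts per site divided by a factor for each library and rounded. The libraries were alike in scale, with totals from 8008069 to 8516263 and medians from 51 to 53. They were not alike in depth, since the estimated number of reads in sites was about 9420000 and 11400000 in the WT libraries against 7830000 and 5650000 in the KO libraries. Counting error alone was thus larger in both KO libraries. Fibroblast identity was checked at promoters, and 6 of 7 fibroblast markers had a promoter site, at 125 to 655 normalized counts per kb, while the 3 blood and the 3 muscle markers had none. Of the other cell types, 3 of 3 epithelial, 2 of 3 endothelial and 2 of 4 neural markers had a promoter site, at 79.4 to 306.8 normalized counts per kb. By summed signal, none of the fibroblast markers and, of the others, only the endothelial gene Pecam1 had an unadjusted p under 0.05 (higher in KO), and 1 site near the epithelial gene Cdh1 was called lower. Their part in the results was not tested. The promoter site of Hat1 had 390 and 384 normalized counts in WT and 438 and 368 in KO (log2 fold change 0.05, SE 0.14). The targeted gene was thus open in all 4 libraries, and accessibility at its start does not check the genotype labels.

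Of the sites described below, 6 are printed, and none of them was called. They are the pair of Runx2 introns with an unadjusted p under 0.05, the strongest Runx2 site and the strongest Msx2 site. The sites just upstream of Pax3 and Msx1 are printed too. The Alx4 promoter site, which also had an unadjusted p under 0.05, is not printed. The sites upstream of Pax3 and Msx1 and the Runx2 site that was lower in KO were chosen after their values had been seen. Each sequence is the plus strand of mm10, 300 bases around the centre or the whole of a shorter site. Capitals mark matches, on either strand, to the AP-1 motif TGANTCA, the RUNX motif TGTGGT, which reads ACCACA where it lies on the other strand, and the homeodomain motif TAATTA. A match describes the letters and does not show that a factor was bound.
Runx2 intron, 46.1 kb into the gene, chr17:44768511-44768810: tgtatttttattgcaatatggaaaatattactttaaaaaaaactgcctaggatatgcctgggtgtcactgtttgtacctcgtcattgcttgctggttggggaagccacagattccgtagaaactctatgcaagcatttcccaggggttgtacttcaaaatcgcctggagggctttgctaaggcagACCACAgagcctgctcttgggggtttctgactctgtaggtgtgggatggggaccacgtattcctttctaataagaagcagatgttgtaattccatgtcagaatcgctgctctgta
Runx2 intron, 96.4 kb into the gene, chr17:44718283-44718582: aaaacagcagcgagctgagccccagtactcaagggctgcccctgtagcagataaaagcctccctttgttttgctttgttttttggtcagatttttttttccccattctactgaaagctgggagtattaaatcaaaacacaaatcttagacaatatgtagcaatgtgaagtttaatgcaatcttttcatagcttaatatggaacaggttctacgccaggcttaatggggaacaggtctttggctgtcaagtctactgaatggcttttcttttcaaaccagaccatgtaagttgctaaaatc
Runx2 intron, 314 kb into the gene, chr17:44500455-44500754: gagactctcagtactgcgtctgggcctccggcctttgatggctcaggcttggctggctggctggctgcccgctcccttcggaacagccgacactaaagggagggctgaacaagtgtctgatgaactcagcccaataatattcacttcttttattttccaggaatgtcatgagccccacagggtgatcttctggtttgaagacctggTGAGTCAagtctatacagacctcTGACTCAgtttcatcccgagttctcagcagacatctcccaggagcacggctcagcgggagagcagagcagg
Msx2, 41.7 kb upstream, chr13:53514662-53514961: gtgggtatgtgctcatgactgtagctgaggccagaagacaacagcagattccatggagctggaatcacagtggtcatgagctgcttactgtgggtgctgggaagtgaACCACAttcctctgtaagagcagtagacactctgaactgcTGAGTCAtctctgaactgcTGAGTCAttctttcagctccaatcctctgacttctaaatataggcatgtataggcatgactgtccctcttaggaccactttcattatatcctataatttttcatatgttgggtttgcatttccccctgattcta
Pax3, 6.73 kb upstream, chr1:78203759-78203974: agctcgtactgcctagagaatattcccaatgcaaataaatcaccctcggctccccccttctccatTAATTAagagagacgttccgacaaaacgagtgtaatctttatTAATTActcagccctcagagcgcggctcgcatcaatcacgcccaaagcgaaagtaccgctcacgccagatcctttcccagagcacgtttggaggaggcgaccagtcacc
Msx1, 6.09 kb upstream, chr5:37830520-37830819: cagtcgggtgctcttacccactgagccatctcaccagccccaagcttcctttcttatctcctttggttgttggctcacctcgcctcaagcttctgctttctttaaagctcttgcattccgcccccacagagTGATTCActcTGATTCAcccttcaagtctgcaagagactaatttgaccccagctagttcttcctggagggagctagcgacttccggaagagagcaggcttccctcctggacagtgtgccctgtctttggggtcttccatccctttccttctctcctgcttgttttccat

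The Pax3 sequence holds 2 homeodomain motifs and no other match. The Msx1, Msx2 and strongest Runx2 sequences each hold 2 AP-1 motifs, the Msx2 sequence holds a RUNX motif as well, and the Runx2 sequence that was higher in KO holds 1 RUNX motif alone. Over 300 bases at each site, the AP-1 motif occurred in 23 of 61 member sites (37.7%), against 37.7% of all sites. The RUNX motif occurred in 13 (21.3%, against 26.6%), the homeodomain motif in 4 (6.56%, against 4.67%) and the GC box GGGCGG in 12 (19.7%, against 17.3%). Among promoter sites the GC box was found in 4 of 11 members, where 52.9% of all promoter sites hold it.

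No member site was called between genotypes. The call rule was an unadjusted p under 0.01 in limma together with a log2 fold change of 1 or more in either direction, and it called 0.373% of all sites (0.302% lower and 0.0705% higher in KO). An adjusted p under 0.05 was reached by 0 sites of the whole table, where 2579 sites had an unadjusted p under 0.05 (3.13%, of which 1.59% lower and 1.54% higher in KO). Among the members 3 sites had an unadjusted p under 0.05, and these were a Runx2 intron that was higher in KO, another that was lower, and the promoter of Alx4, which was lower. The median log2 fold change was -0.02 over the 61 sites and 0.01 over all sites, and 32 of the 61 were below 0, against 49.3% of all sites. Both KO libraries lay below both WT libraries at 17 member sites (27.9%), against 14.3% of all sites, and above them at 9, against 14.6%. The groups overlapped at the other 35. With each library rescaled to equal totals the counts were 19 below and 5 above, against 19.0% and 10.9% of all sites, and with quantile normalization 17 and 5, against 14.5% and 13.1%.

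Member sites with low signal held most of the lower values. Of the 34 sites with a mean below the median of all sites, 12 had both KO libraries below both WT libraries (35.3%, against 18.4% of all such sites) and 1 had both above. Of the 27 sites at or above that median, 5 had both KO libraries below (18.5%, against 10.2%) and 8 had both above. Shares of all such sites with both above are not given here. Counts also differed between genes, whose sites differed in signal. Without Runx2, 10 of 30 sites had both KO libraries below (33.3%, against 14.3% of all sites) and 1 had both above (against 14.6%). Their median log2 fold change was -0.30, and 10 of the 30 had a mean at or above the median signal of all sites. The 31 Runx2 sites had 7 below (22.6%) and 8 above, with a median of 0.13, and 17 had such a mean. Whether fewer cells had an open site or the site was less open in each cell cannot be told apart in bulk libraries.

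**Figure D1:**
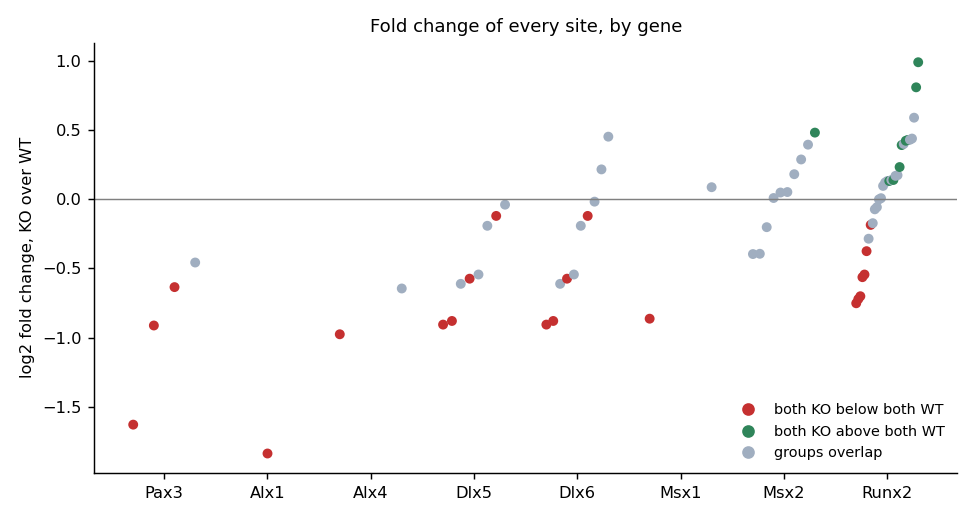
Log2 fold change, KO over WT, of every site by gene, with 1 point per site (Dlx5 and Dlx6 share 7) and colours for the order of the libraries. All 4 Pax3 sites, both Alx4 sites and the Alx1 site lie below 0, and the 31 Runx2 sites spread from -0.75 to 0.99.

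In promoter signal all 8 genes stood below the median gene, by degrees that differed widely. A promoter site here lies within 3 kb of the gene's TSS, and the 8 genes held 11 of them. For Runx2 this TSS is the distal start, and the sites at its internal starts are not counted here. By promoter signal per kb of site, Alx1 stood at the 0.408 percentile of 13969 genes with a promoter site, Pax3 at 1.63, Alx4 at 2.00, Dlx5 at 7.63, Dlx6 at 17.8, Msx1 at 29.0, Msx2 at 30.0 and Runx2 at 33.9. Both KO libraries lay below both WT libraries at 5 of the 11, with a median log2 fold change of -0.57 over the 11. For comparison, this order was found at 14.9% of all sites within 3 kb of a protein-coding TSS, and at 27.3% of those with a mean below the median of all sites. Of the 11 member promoter sites, 5 had such a low mean.

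**Figure D2:**
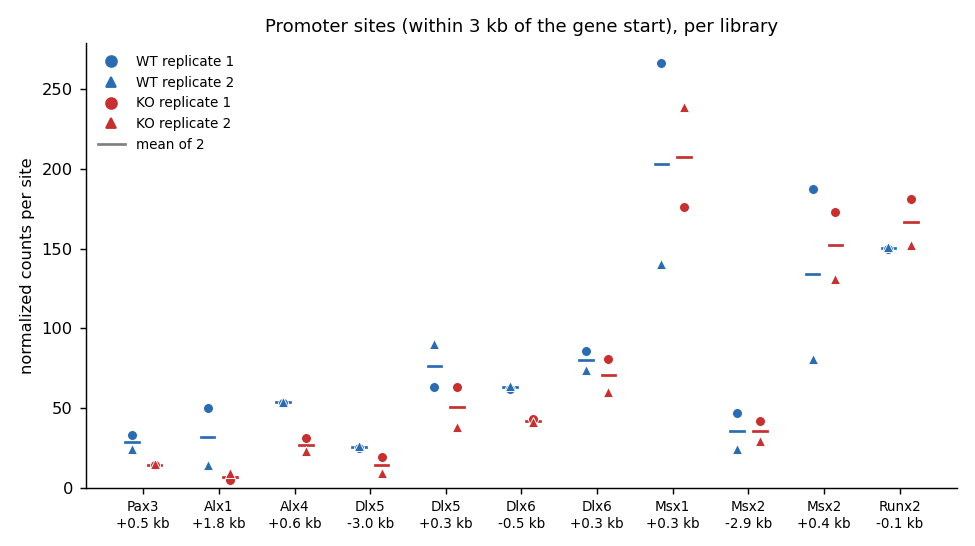
Normalized counts of the 11 promoter sites in each library, labelled by gene and distance from the TSS, with bars for the mean of 2. WT and KO points are apart at Alx4 and at the upstream Dlx6 site, and overlap at Msx1 and at both Msx2 sites.

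Pax3 marks the neural crest and early muscle progenitors, and all 4 of its sites had lower means in KO. Its promoter site, chr1:78196497-78196851, is centred 0.46 kb into the gene, over untranslated and coding sequence. It had 33 and 24 normalized counts in WT and 14 and 15 in KO (log2 fold change -0.91, SE 0.49, 95% interval from -2.10 to 0.27, adjusted p = 1 in limma). The KO libraries were both below the WT libraries, on about 39 and 34 reads against 13 and 10. The site 6.73 kb upstream, printed above, had 26 and 16 in WT and 3 and 11 in KO (log2 fold change -1.63, SE 0.86). The KO values again lay below, and the value of 3 in KO replicate 1 rested on about 3 reads, with a 95% counting interval from 0.666 to 9.43. Farther upstream the strongest Pax3 site, chr1:78215764-78216270, had 42 and 70 in WT and 29 and 53 in KO, so the groups overlapped there. Summed over the 4 sites, Pax3 had 142 and 140 in WT and 65 and 105 in KO. This gave a log2 fold change of -0.76 with a 95% interval from -1.58 to 0.05 (adjusted p = 0.901 in limma).

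Alx1 had a single site, chr10:103028197-103028613, 1.81 kb into the gene over its early coding and untranslated sequence. It had 50 and 14 normalized counts in WT and 5 and 9 in KO. Both KO libraries were below both WT libraries, but the WT libraries differed from each other by more than WT replicate 2 differed from KO. The log2 fold change was -1.84 with an SE of 0.82 (adjusted p = 1 in the limma fit of sites). The estimated reads behind it were 59, 20, 5 and 6, so its size is poorly set at this depth. As a gene sum the same values gave a 95% interval from -4.01 to 0.34.

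Alx4, which acts with Alx1 in the upper face and skull vault, had 2 sites. Its promoter site, chr2:93642643-93643280, had 53 and 54 in WT and 31 and 23 in KO. The WT libraries were nearly equal and both KO libraries were well below them (log2 fold change -0.98, SE 0.37, 95% interval from -1.87 to -0.08). The unadjusted p was under 0.05 but the adjusted p in limma was 1. Both the unadjusted p and the fold change fell short of the call rule. The intronic site 16.8 kb into the gene had 14 and 21 in WT and 14 and 8 in KO, where the groups met. Over both sites Alx4 had 67 and 75 in WT and 45 and 31 in KO (log2 fold change -0.91, 95% interval from -1.91 to 0.10).

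Dlx5 and Dlx6, convergently transcribed genes of the lower jaw program, had 11 sites between them. Both KO libraries lay below both WT libraries at 4 of the 11 sites (36.4%, against 14.3% of all sites). They lay above them at 0, against 14.6%. Only 4 of the 11 had a mean that reached the all-site median. Among all weaker sites, 18.4% had both KO libraries below. The site 0.506 kb upstream of Dlx6, chr6:6862660-6862996, had 62 and 64 in WT and 43 and 41 in KO. Replicates agreed closely here in each genotype (log2 fold change -0.57, SE 0.32, 95% interval from -1.35 to 0.20). The next site, 0.339 kb into Dlx6, had 86 and 74 in WT and 81 and 60 in KO, and the groups overlapped. At the Dlx5 promoter, chr6:6881460-6882195, 63 and 90 in WT stood against 63 and 38 in KO (log2 fold change -0.61, SE 0.39). A weak site 3.05 kb upstream of Dlx5 had 25 and 26 in WT and 19 and 9 in KO. The strongest site of the locus, chr6:6830282-6830907, lies at a start of the noncoding RNA gene Dlx6os1. It had 159 and 175 in WT and 194 and 140 in KO, a log2 fold change of -0.02. The signal summed over Dlx5 was 361 and 365 in WT and 305 and 246 in KO (log2 fold change -0.40, 95% interval from -0.86 to 0.05), and over Dlx6 534 and 579 against 537 and 438 (-0.20, from -0.59 to 0.19). These sums depended on the distance from the TSS. With 100 kb in place of 50 kb the log2 fold changes were -0.0275 for Dlx5 and -0.0357 for Dlx6, and with 10 kb they were -0.68 and -0.35.

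At the promoters of Msx1 and Msx2, the BMP-responsive members, the WT lines differed more from each other than the genotype means did. The Msx1 promoter site, chr5:37823692-37824861, had 266 and 140 in WT and 176 and 239 in KO (log2 fold change 0.09, SE 0.34). Both KO values lay between the WT values. The Msx1 site 6.09 kb upstream had 54 and 39 in WT and 34 and 18 in KO, both below, with a log2 fold change of -0.86 (SE 0.46). At the Msx2 promoter, chr13:53472300-53473096, WT had 187 and 81 and KO 173 and 131. The other Msx2 promoter site, 2.91 kb upstream, had 47 and 24 in WT and 42 and 29 in KO, again inside the WT range. The strongest Msx2 site, 41.7 kb upstream, was the exception, with 132 and 129 in WT and 171 and 195 in KO (log2 fold change 0.48, SE 0.22, 95% interval from -0.05 to 1.02). Summed, Msx1 had 320 and 179 in WT and 210 and 257 in KO, and Msx2 830 and 558 in WT and 859 and 683 in KO. The log2 fold changes were -0.04 (95% interval from -0.81 to 0.72) and 0.17 (from -0.37 to 0.71), and both turned direction when 1 library or another was left out.

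**Figure D3:**
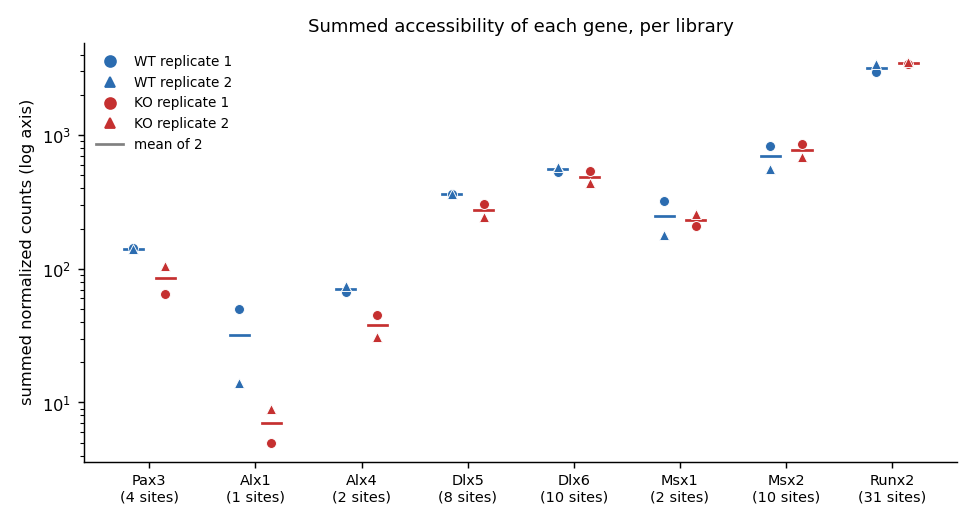
Normalized counts summed over the sites of each gene, per library, on a log axis, with bars for the mean of 2. Pax3, Alx1, Alx4 and Dlx5 have both KO libraries below both WT libraries, Runx2 has both above, and the other 3 genes overlap.

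Runx2 had more sites than 99.6% of the 18801 protein-coding genes with a site, and its sum was 2981 and 3385 in WT and 3405 and 3544 in KO. Both KO libraries lay above both WT libraries, narrowly for KO replicate 1 against WT replicate 2 (log2 fold change 0.13, 95% interval from -0.12 to 0.38). The strongest site lies in an intron 314 kb into the gene, chr17:44500227-44500983. It was stronger than 99.3% of all sites and had 461 and 620 in WT and 639 and 811 in KO (log2 fold change 0.43, SE 0.18, 95% interval from -0.0044 to 0.86). Its neighbour at 312 kb had 94 and 115 in WT and 160 and 122 in KO. Both of these distal sites were thus above WT in both KO libraries.

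The intron site 46.1 kb into Runx2, chr17:44768506-44768816, had 37 and 36 in WT and 72 and 75 in KO. Replicates were close within each genotype, and the groups were well apart. The log2 fold change was 0.99 (SE 0.32, 95% interval from 0.21 to 1.77), with the smallest unadjusted p among the 61 sites and an adjusted p of 1 in limma. The site at 96.4 kb, chr17:44717919-44718947, had the opposite order, with 140 and 194 in WT and 99 and 96 in KO (log2 fold change -0.75, SE 0.27, 95% interval from -1.41 to -0.10, adjusted p = 1).

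Runx2 is transcribed from a distal and a proximal promoter. The distal promoter site, chr17:44814487-44815298, had 150 and 151 in WT and 181 and 152 in KO, so 1 KO library stood above the rest and the other beside them. Around the internal starts, 76.6 to 80.0 kb into the gene, 4 sites had a median log2 fold change of -0.36. The site at 76.6 kb had 231 and 221 in WT and 196 and 122 in KO (log2 fold change -0.54, SE 0.27). The site over the untranslated sequence there, chr17:44735802-44736685, had 202 and 201 in WT and 227 and 215 in KO, the reverse order at a log2 fold change of 0.13. A site 37.5 kb into Runx2 is the promoter of Supt3, a coactivator subunit gene that overlaps Runx2, and had 292 and 295 in WT and 259 and 257 in KO (log2 fold change -0.19, SE 0.16). Sites of both orders thus stood side by side within the gene, and a sum over the gene does not show them apart. Of the 31 sites 7 were below and 8 above, against 14.3% and 14.6% of all sites. None was called, so opposite changes within the gene were not shown.

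**Figure D4:**
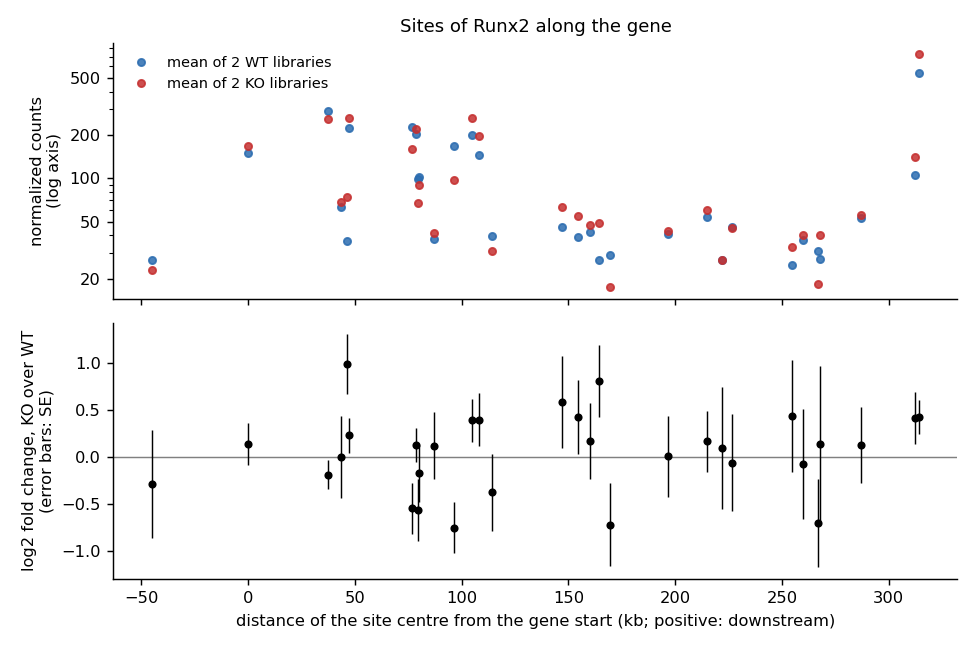
Runx2 sites by distance from the TSS, with the mean of each genotype on a log axis above and the log2 fold change with its SE below. The sites at 46.1 kb (0.99) and 96.4 kb (-0.75) have the highest and the lowest log2 fold change, and the strongest site lies at 314 kb. Others come near them, such as the sites at 164 kb (0.81) and 169 kb (-0.72).

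By gene, both KO libraries were below both WT libraries at 4 of 8 members, against 10.6% of all genes. They were above at 1, against 24.8%. Of the 4 lower genes, Alx1, Alx4 and Pax3 had 1, 2 and 4 sites, all with a mean below the median of all sites. The share among genes of like signal is not given here. None of the 8 had an unadjusted p under 0.05 (4.14% of all genes had one, 1.6% lower and 2.54% higher in KO), and the adjusted p-values in limma ran from 0.901 to 0.985. Without limma's intensity trend 3 members had an unadjusted p under 0.05, Dlx5, Alx4 and Pax3, each lower in KO. The share of all genes without the trend is not given here, so that count has no background. The median log2 fold change of the 8 sums was -0.30, and 6 of 8 were below 0, as were 36.3% of all genes. With 2 libraries per genotype an exact two-sided permutation test cannot give a p below 0.333, so the order of the libraries alone cannot pass a test.

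The members were also placed relative to broad regions of lower accessibility in KO. Log2 fold changes were averaged in windows of 25 neighbouring sites, and windows with a mean under -0.58 were joined into 167 domains where they lay no more than 1 Mb apart. For each member the window centred on the site nearest to its TSS was taken. Windows with a mean under -0.58 made up 3.42% of all windows, and 2.61% of protein-coding genes with a site had their start inside a domain. The starts of 2 of the 8 members were inside one. Pax3 had a window mean of -0.69, with KO replicate 1 at -0.76 and KO replicate 2 at -0.62 against the WT mean, and the WT libraries differed by -0.04. It lies in a domain of 5.20 Mb with 113 sites, chr1:75559300-80758947, whose mean was -1.22 in KO replicate 1 and -0.31 in KO replicate 2. Over this domain the WT libraries differed by -0.38, more than KO replicate 2 differed from the WT mean. Over windows of higher-signal sites only, the Pax3 mean was -0.35, which no longer passed the cutoff.

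Alx1 had a window mean of -0.71, but this came from KO replicate 1 alone, at -1.82, while KO replicate 2 was at 0.40. Its domain, chr10:102498830-105774726, is sparse, with 26 sites over 3.28 Mb, and had the same split, at -1.92 and 0.36. At the Alx1 site itself both KO libraries were low, as given above. The window means of the other 6 members lay between -0.33 (Dlx5) and 0.08 (Runx2). Alx4 lay 0.763 Mb from the nearest domain, chr2:94405774-97634905 (mean -1.42), and Msx1 0.909 Mb from chr5:38733733-41844679 (mean -1.50). The Dlx5 window passed the cutoff without WT replicate 1 (-0.61) and without KO replicate 2 (-0.59), and the Alx1 window no longer did without WT replicate 1 (-0.52). Around Alx4 and Msx1 themselves the windows had means of -0.12 and -0.16.

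**Figure D5:**
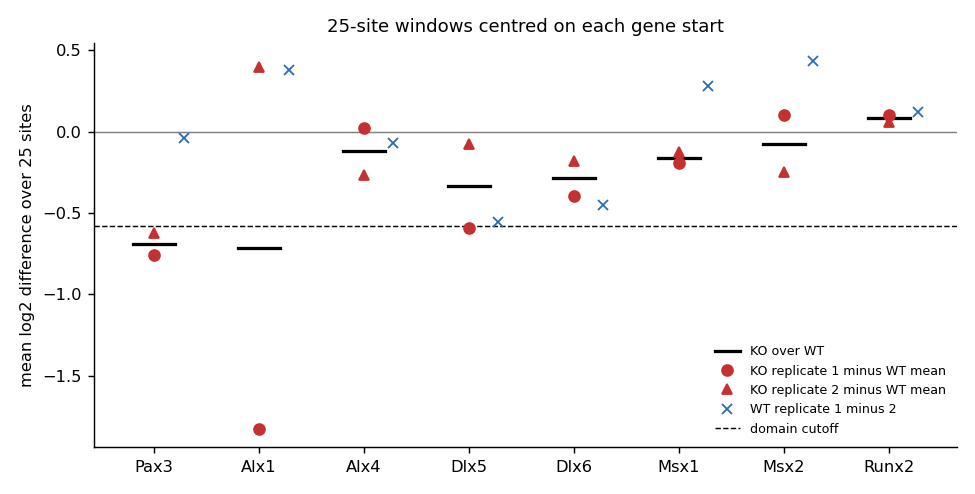
Mean log2 difference over the 25 sites centred on each gene start, for KO over WT (bar), for each KO library against the WT mean, and between the WT libraries. Both KO libraries are below the dashed cutoff of -0.58 at Pax3 only, and at Alx1 they lie at -1.82 and 0.40.

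Genes related to the members were counted the same way, from lists written with earlier results of these data known. Of 9 paralogs, among them Runx1 (24 sites, log2 fold change 0.02), Dlx3 (18 sites, 0.15) and Dlx4 (13 sites, 0.21), none had an unadjusted p under 0.05 in either direction, and their median log2 fold change was 0.11. The median of all genes was 0.06. Both KO libraries lay below both WT libraries at 0 of the 9 paralogs and above them at 1. The shares of all genes were 10.6% below and 24.8% above. Of 22 other craniofacial and skeletal transcription factors 21 had a site, and their median log2 fold change was 0.07. Among these 21 genes both KO libraries lay below both WT libraries at 4 and above them at 3. Gli3, a mediator of hedgehog signalling, had the most sites of this list (26), with 1876 and 2132 normalized counts in WT and 1944 and 2541 in KO (log2 fold change 0.15, SE 0.15). Prrx1, a homeodomain factor of limb and facial mesenchyme, had 732 and 1419 in WT and 1386 and 1244 in KO (log2 fold change 0.37, SE 0.29), and the groups overlapped at both genes.

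The 17 BMP ligands, receptors, Smads, antagonists and Id genes, the pathway that also regulates the Msx genes, had a median log2 fold change of -0.02, with none at an unadjusted p under 0.05 in either direction. Both KO libraries lay below both WT libraries at 1 of the 17 and above them at 2. Bmpr1b, a BMP receptor, showed the spread between lines, with 716 and 1284 in WT and 436 and 1271 in KO. The 12 osteoblast genes that are targets or partners of Runx2 had a median of 0.10, also with none past that threshold. Of these 12 genes, 0 had both KO libraries below both WT libraries and 3 had both above. Col1a1, which encodes the main collagen of bone and is also a fibroblast marker, had 1977 and 2188 in WT and 2028 and 2619 in KO (log2 fold change 0.15, SE 0.14).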

How the data were processed

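ATAC-Seq was read from 4 libraries of immortalized MEFs, grouped by the genotype in the labels. The authors used BWA 0.7.12 for the alignment of read pairs to mm10, MACS2 2.1.0 for peaks and DESeq2 to compare the genotypes. The deposited values are a score: read counts per site that the authors scaled by a factor per library and rounded. Read filters and the handling of the Tn5 offset are not given in the sources used here. The deposited table also holds fold changes, p-values and adjusted p-values of the authors' own comparison, which were not used. The number of reads behind a value was estimated from the gaps that scaling leaves among whole numbers up to 100, and counting intervals (95%, Poisson) cover counting error only.

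Sites were linked to GENCODE genes on GRCm38 (mm10). No site was filtered out. Values were tested as log2(value + 1) with limma 3.58.1 (intensity trend, two-sided, R 4.3.3) on all 82325 sites and on sums over all 18801 genes, with Benjamini-Hochberg adjustment over each whole table. The pseudocount of 1 makes fold changes of weak sites too small. A summed gene was called at an unadjusted p under 0.05. Scripts were tested on simulated data. Sites named for each gene were its promoter sites, its strongest site, the site with the largest change among those at or above the median signal, and any called site. Sites outside this rule (those upstream of Pax3 and Msx1, the Runx2 sites at 312, 96.4, 76.6 and 37.5 kb and over the untranslated sequence, the Alx4 intron site, and Bmpr1b's spread) were chosen after their values were seen. From the other gene lists, some of the genes with the most sites were named, and a result for 1 gene of the list of other transcription factors is not reported here. The 8 genes and all lists were chosen with earlier results of these data known. Sequences are from the mm10 genome. Tables were made with Python 3.11.15, numpy 2.4.6 and pandas 2.3.3.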

Additional observations from a re-analysis of the deposited data

How the results depend on the processing

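No paired analysis was possible because only 1 WT and 1 KO line share a number in their names (WT replicate 1 and KO replicate 2), and replicate numbers here are names only. No member site was called under any alternative run: another pseudocount, a filter for higher signal, 3 other scalings, no intensity trend, each library left out, other distances or gene starts, and an adjusted p under 0.05. The median over member sites went from -0.02 to 0.13 with the 27 sites of higher signal only, and ranged from -0.16 to 0.0019 with single libraries left out. For counts of member genes, the share of all genes under each alternative run is not given here, so they have no background. The number of member genes with an unadjusted p under 0.05 went from 0 to 2 with equal totals or centring (Dlx5 and Pax3), 2 with a distance of 10 kb (Alx4 and Pax3) and 3 without the trend (Dlx5, Alx4 and Pax3). With single libraries left out it ranged from 0 to 2: 1 without WT replicate 2 (Alx1), 2 without KO replicate 1 (Dlx5 and Alx4) and 1 without KO replicate 2 (Pax3), and the lone library left is then assumed to vary like the others. Of the 16 sites named by the rule, 2 had an unadjusted p under 0.05 (the Alx4 promoter and the Runx2 intron at 46.1 kb). This count was 0 with higher signal only, where 10 of them were tested, and ranged from 0 to 3 with single libraries left out: 0 without WT replicate 1, 1 without WT replicate 2, 3 without KO replicate 1 and 1 without KO replicate 2. The 2 gene windows under -0.58 became 0 with a pseudocount of 8, with higher signal only or with quantile normalization, 1 with windows of 15 sites (Alx1) and with single libraries left out ranged from 1 to 3: Pax3 without KO replicate 1, Dlx5 and Pax3 without WT replicate 1, and Dlx5, Alx1 and Pax3 without KO replicate 2. The direction of Msx1 reversed with higher signal only (0.0871) and ranged from -0.46 to 0.37 with single libraries left out, and that of Msx2 ranged from -0.12 to 0.46. Among named sites, the weak Msx2 promoter site went to -0.0144 with equal totals. Leaving out single libraries turned the direction at the Msx2 promoter (range -0.31 to 0.89), at the weak Msx2 promoter site (-0.42 to 0.52), at the Msx1 promoter (-0.37 to 0.55), at the Dlx6os1 start (-0.25 to 0.22) and at the site inside Dlx6 (-0.41 to 0.0217). Sites with both KO libraries above both WT libraries went from 9 to 5 with equal totals (10.9% of all sites) and to 5 with quantile normalization (13.1%), scalings added after the data were seen for this count, while those below stayed at 17 to 19. The causes were not tested. With 2 lines per genotype and under 10 reads at some weak sites in KO, small differences could not be detected at this depth.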
